A study of Mus musculus with 3 samples.

Results

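The interleukin-1 family and its receptors were followed through single-cell RNA libraries of mouse ear epidermis. The set held 10 genes, found by symbol among 34289 listed features: the ligands Il1a, Il1b, Il18 and Il36g, the receptor antagonist Il1rn, the receptors Il1r1 and Il1rap, the decoy receptor Il1r2, and the processing genes Nlrp3 and Casp1. All 10 were listed in each of the 3 libraries, and all 10 are described, with values per cell class. The study made 1 library from each of 3 groups of male mice of the outbred CD1 stock (spelled Cd1 in the labels). Untreated controls received only the depilatory cream Nair. The croton oil group was painted with this irritant oil in a vehicle of acetone and olive oil, and the microneedle group was punched with a needle array. Collection was 48 h after the first treatment. Cells came from ear epidermis split off with trypsin, and Langerhans cells (LCs), dendritic cells that live among keratinocytes and present antigen, were enriched on magnetic beads after removal of dead cells. The labels do not say how many animals were pooled. With 1 library per group no difference between groups could be tested, and every interval below is an exact 95% interval for counting error only.

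Interleukin-1α and interleukin-1β bind the same receptor, IL1R1, which signals only once the accessory chain IL1RAP has joined it. IL1R2 binds interleukin-1 but lacks the signalling part and so acts as a decoy, and the antagonist encoded by Il1rn occupies IL1R1 without triggering it. The precursors of interleukin-1β and interleukin-18 are cut by caspase-1 inside inflammasomes, of which NLRP3 is a sensor, and IL-36γ uses IL1RAP together with its own receptor chain, IL1RL2. In skin, interleukin-1β is known as a signal that sets LCs moving to lymph nodes. RNA says nothing of cutting or release of these proteins.

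After filtering, 9827 untreated, 8158 croton oil and 6855 microneedle cells were kept, with medians of 11671, 12709 and 17495 unique molecular identifiers (UMIs, counts of captured RNA molecules) per LC. LCs were cells with at least 2% of their UMIs from Cd74, H2-Aa, H2-Ab1 and H2-Eb1 and at least 2 Epcam UMIs. There were 9417, 6273 and 5593 of them, and Cd207, which encodes the LC lectin langerin, was present in them at 570 (untreated), 325 (croton oil) and 462 (microneedle) CPM (a gene's UMIs scaled to a fixed total over the summed cells, the usual unit for counts of unequal depth). Neutrophils, with at least 1% of UMIs from S100a8, S100a9 and Retnlg and under 0.3% from keratins, numbered 199 after croton oil and 406 after microneedling. No untreated cell met that gate, 0 of 9827, which allows a share of up to 0.0305% with 3 cells taken as the limit for a count of 0. Macrophages reached 50 cells only after microneedling (292), T cells only after croton oil (137), and keratinocytes numbered 88, 163 and 57. A further class held cells with Ccr7 and Fscn1, genes of migrating dendritic cells, that did not meet the LC gate: 614 after croton oil, 149 after microneedling and 5 in the untreated library. Cell numbers follow the bead enrichment, and fewer cells of a type cannot be told apart from fewer captured. The libraries shared 32, 17 and 13 barcodes pairwise.

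Il1b, the gene of interleukin-1β (chr2:129206490-129213059, GRCm39, minus strand), differed most between LCs among the members of at least 20 CPM. It stood at 72.8 CPM (71.3 to 74.3) in LCs of untreated skin, 701 (696 to 707) after croton oil and 347 (343 to 350) after microneedling. The 3 intervals did not overlap, and both treated libraries were high. The ratio to untreated was 9.64 (9.42 to 9.85) for croton oil and 4.76 (4.65 to 4.88) for microneedling. Croton oil LCs held 2.02 times (2.00 to 2.05) the microneedle level.

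The gene whose levels ran most like those of Il1b over the 12 class and library sums was Cxcl2, a neutrophil-attracting chemokine, as described further on. The 250 bases before the start of each gene's canonical transcript are therefore shown, 5′ to 3′ on the gene's strand, from GRCm39 at the GENCODE M39 starts. Capitals mark matches, on either strand, to the 5 motifs searched: TATAAA (a core promoter element), GGG and TTTCC with any 2 bases between them (NF-kB), TGA and TCA with any base between them (AP-1), TTGC and AA with any 2 bases between them (C/EBP), and GAGGAA (PU.1). The windows are chr2:129213060-129213309 (minus strand) for Il1b and chr5:91051480-91051729 (plus strand) for Cxcl2.
Il1b: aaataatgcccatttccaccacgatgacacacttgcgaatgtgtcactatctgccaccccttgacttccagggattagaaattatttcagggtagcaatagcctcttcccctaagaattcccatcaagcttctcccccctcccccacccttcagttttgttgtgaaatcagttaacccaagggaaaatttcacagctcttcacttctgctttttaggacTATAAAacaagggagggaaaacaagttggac
Cxcl2: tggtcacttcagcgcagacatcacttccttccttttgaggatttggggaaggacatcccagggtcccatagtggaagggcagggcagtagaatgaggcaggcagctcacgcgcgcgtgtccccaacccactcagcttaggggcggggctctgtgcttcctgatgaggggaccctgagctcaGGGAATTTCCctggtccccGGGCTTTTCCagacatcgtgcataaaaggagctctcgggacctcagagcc
The Il1b window held 1 match, TATAAA from 31 to 26 bases before the start, letters found in 11.9% of 21770 protein-coding windows of the same length. The Cxcl2 window held 2 matches, both to the NF-kB letters, GGGAATTTCC from 69 to 60 and GGGCTTTTCC from 50 to 41 bases before the start. The NF-kB letters occurred in 1.47% of windows, AP-1 in 6.17%, C/EBP in 9.34% and PU.1 in 22.9%. The Il1b window did not hold the NF-kB letters, which speaks only of these letters in this window.

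**Figure D1:**
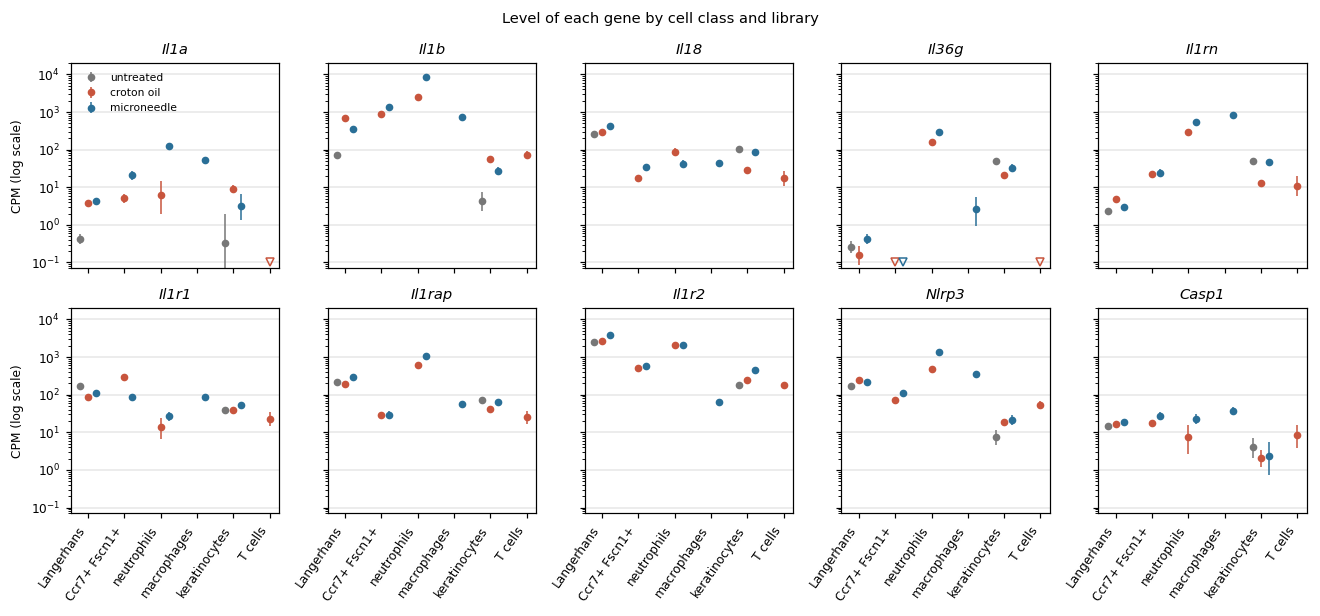
CPM of each gene (log scale) by cell class, for class sums of at least 50 cells, with exact 95% counting intervals; grey is untreated, red croton oil and blue microneedle, and open triangles mark 0 UMIs. Il1b spans 4.40 CPM in untreated keratinocytes to 8325 CPM in microneedle neutrophils, and Il1r2 stays above 2000 CPM in LCs and neutrophils of every library that holds them.

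LCs were not the cells with the highest Il1b level. Neutrophils held 8325 CPM (8196 to 8457) after microneedling and 2519 (2411 to 2631) after croton oil. Melanocyte markers summed to 176 CPM in croton oil and 1.59 in microneedle neutrophils, with 142 of the 143 croton oil UMIs in 1 droplet. Without neutrophils that held such a UMI the Il1b levels were 8332 and 2616 CPM. Next came the Ccr7+ Fscn1+ cells with 1338 CPM (1294 to 1384) after microneedling and 910 (891 to 929) after croton oil. Neutrophils and Ccr7+ Fscn1+ cells thus carried more Il1b RNA after microneedling and LCs more after croton oil. Macrophages after microneedling stood at 741 CPM (706 to 777), an interval that overlaps that of croton oil LCs. Croton oil T cells (72.0 CPM, 56.9 to 89.9, or 47.1 as the mean of each cell's own CPM) overlapped untreated LCs and also croton oil keratinocytes (55.7, 50.7 to 61.1). The T cell value was 0.103 (0.0812 to 0.128) of the croton oil LC level. In the same T cells the LC genes Cd207 and Ltc4s stood at 0.128 (0.0933 to 0.171) and 0.0907 (0.0704 to 0.115) of theirs. The part of LC RNA in the T cell value was not tested. Microneedle keratinocytes held 27.4 CPM (20.9 to 35.4) and untreated keratinocytes 4.40 (2.35 to 7.53). These keratinocyte values were 0.0605 (untreated), 0.0795 (croton oil) and 0.0791 (microneedle) of the LC level. The LC genes Cd207 (0.0886, 0.0578 and 0.143) and Ltc4s (0.0869, 0.0848 and 0.131) stood at these ratios in the same keratinocytes. After croton oil the interval of the Il1b ratio (0.0722 to 0.0872) lay above that of Cd207 (0.0490 to 0.0679) and overlapped that of Ltc4s (0.0773 to 0.0929). In microneedle keratinocytes it (0.0602 to 0.102) lay below both, and in untreated ones (0.0322 to 0.104) it overlapped both. The part of LC RNA in the keratinocyte values was not tested. Averaging per cell in the same way raised the microneedle keratinocyte value to 322. The croton oil neutrophil level was 1668 CPM when 8 droplets with 0.3% to 2% keratin UMIs were kept, as the rule for neutrophils alone would have it.

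LCs, the most numerous class, held most Il1b UMIs in these suspensions: 98.3% in the untreated, 77.0% in the croton oil and 60.0% in the microneedle library. Neutrophils held 26.2% of Il1b UMIs after microneedling and 2.55% after croton oil. In Ccr7+ Fscn1+ cells lay 10.8% after croton oil and 5.72% after microneedling.

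**Figure D2:**
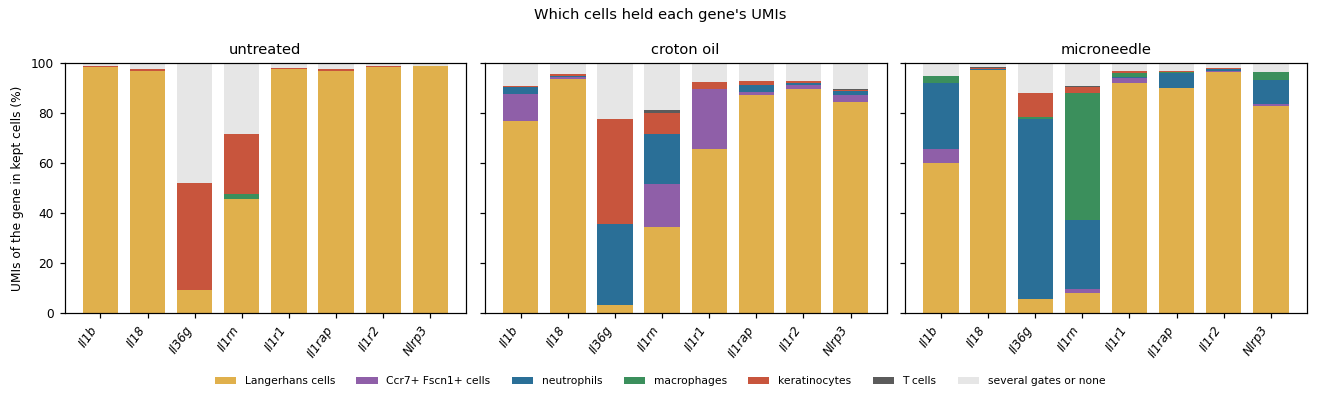
Share of each gene's UMIs in kept cells (vertical axis, %) by cell class, 1 panel per library; grey tops are droplets that met several gates or none. LCs hold most UMIs of 6 of the 8 genes drawn in every library, whereas after microneedling Il36g lies mostly in neutrophils (71.9%) and Il1rn in macrophages (50.5%) and neutrophils (27.7%).

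More LCs carried Il1b after treatment. With every cell thinned to 2000 UMIs, 7.45% of untreated LCs (6.92 to 8.0), 39.5% of croton oil LCs (38.3 to 40.8) and 25.3% of microneedle LCs (24.2 to 26.5) had an Il1b UMI. Without thinning the shares were 16.9%, 58.8% and 47.9%. Croton oil T cells, which share the library's free RNA, had 5.26% (2.14 to 10.5) thinned and 11.7% unthinned, at a median of 6244 UMIs per T cell. The load was uneven among LCs: the tenth of cells richest in Il1b held 58.1% of thinned Il1b UMIs after croton oil and 70.7% after microneedling, and the variance of thinned Il1b UMIs per LC was 3.13 times the mean without treatment, 5.87 times after croton oil and 4.55 times after microneedling. In neutrophils 99.2% (97.7 to 99.8) had an Il1b UMI after microneedling and 76.0% (69.0 to 82.0) after croton oil (99.5% and 81.9% unthinned). Among Ccr7+ Fscn1+ cells the share was 60.1% (51.8 to 68.1) after microneedling and 52.6% (48.6 to 56.6) after croton oil (85.2% and 75.4% unthinned), which overlap. Macrophages stood at 41.5% (35.5 to 47.6), or 53.1% unthinned.

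Cycling LCs, those with at least 2 Mki67 or Top2a UMIs, carried more Il1b than the other LCs of their library. The levels were 77.6 against 70.4 CPM in the untreated, 831 against 672 in the croton oil and 439 against 298 in the microneedle library. Cycling cells also had more UMIs, with medians of 20091 against 16533 after microneedling. Without cycling cells the log2 difference of microneedle from untreated LCs was 2.00 and that of croton oil 3.16. LCs inside the gate that had both a Ccr7 and a Fscn1 UMI (164 cells after croton oil) held 772 CPM of Il1b.

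**Figure D3:**
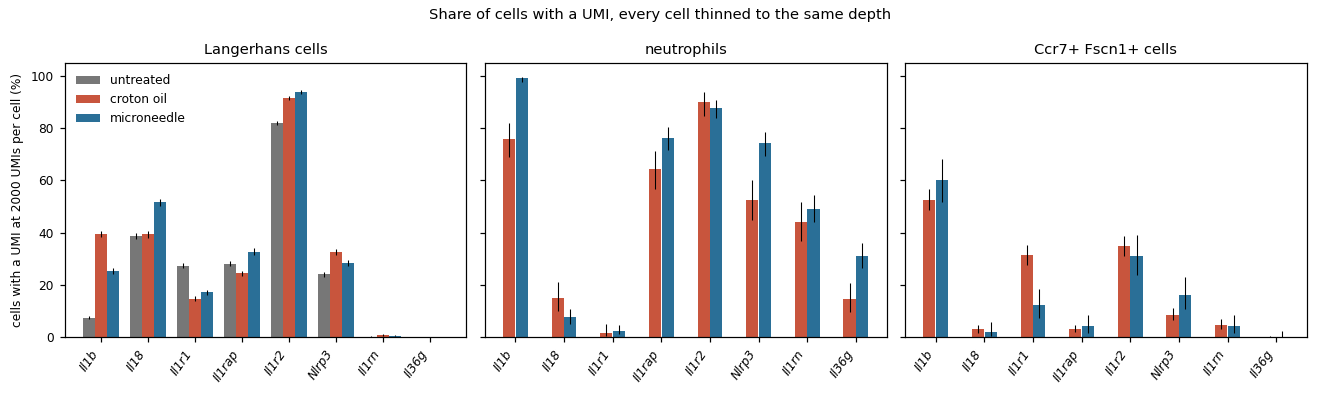
Share of cells with a UMI of each gene (vertical axis, %) after thinning every cell to 2000 UMIs, in LCs, neutrophils and Ccr7+ Fscn1+ cells, with exact binomial 95% intervals. Il1b is found in 7.45%, 39.5% and 25.3% of untreated, croton oil and microneedle LCs, and Il1r1 in fewer treated than untreated LCs.

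As a gauge of free neutrophil RNA in LC droplets, the LC level of neutrophil genes was set beside that of Il1b. The 6 neutrophil markers not used in the gate stood in LCs at a median of 0.00176 of their neutrophil level after croton oil and 0.00199 after microneedling. Their highest ratio, 0.0246 and 0.223, was that of Mmp9, which untreated LCs also held at 151 CPM in a library without gated neutrophils. The ratio of Il1b was 0.278 (0.266 to 0.291) and 0.0416 (0.0409 to 0.0424). It lay above that of 5 of the 6 markers after microneedling and of all 6 after croton oil. The summed level of the 9 neutrophil markers in LCs was 162 CPM without treatment, 98.7 with croton oil and 132 with microneedling, with 2 markers at 0 in the untreated library. Mmp9 made up 151, 24.0 and 71.3 CPM of these sums. The rest of each sum was smallest without treatment and largest after croton oil, an order shared with Il1b. The part of neutrophil RNA in the LC level of Il1b was not tested. The 14 macrophage markers summed in LCs to 43.5 CPM without treatment, 179 after croton oil and 100 after microneedling, an order shared with Il1b, and no marker was at 0. Cd14 made up 20.5, 113 and 71.3 CPM of these sums and Mrc1, a mannose receptor, 0.331, 49.8 and 2.10. Macrophages numbered 1, 4 and 292 in the same libraries, and the part of macrophage RNA in the LC level of Il1b was not tested. In the microneedle library Il1b in LCs stood at 0.468 of its macrophage level, and 6 macrophage markers outside the gate at 0.00218 to 0.00663 of theirs. Il1bos, a transcript listed antisense to Il1b, stood at 1.71, 2.34 and 3.50 CPM in LCs and at 24.6 and 121 CPM in croton oil and microneedle neutrophils. The pair was counted as separate features. Whether counting used strand is not given in the sources used here, and the part of reads of one gene counted for the other was not tested.

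**Figure D4:**
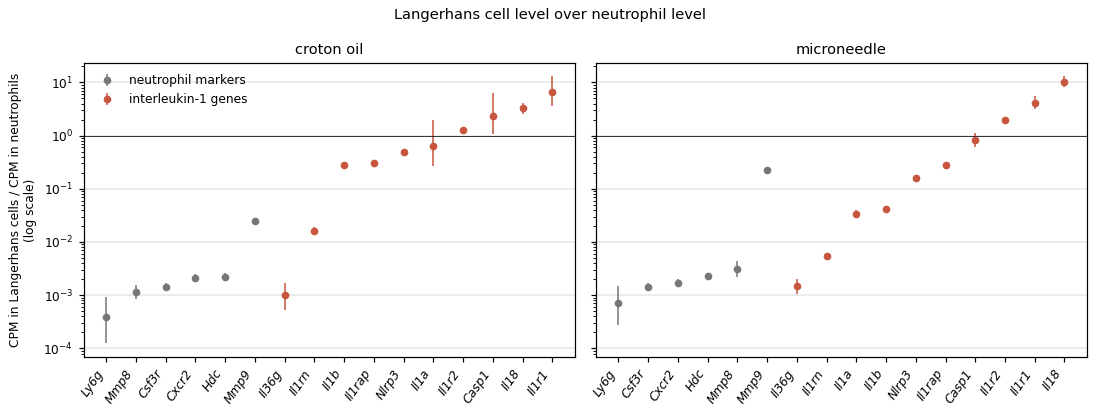
CPM in LCs divided by CPM in neutrophils of the same library (log scale) for 6 neutrophil markers (grey) and the interleukin-1 genes (red), with 95% counting intervals. Il36g lies among the neutrophil markers in both libraries, and Il1b lies at 0.278 after croton oil and 0.0416 after microneedling.

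Il18 (chr9:50466081-50493633, plus strand), the gene of interleukin-18, was held by LCs in every library. Its LC level was 265 CPM (262 to 268) in the untreated, 288 (285 to 292) in the croton oil and 430 (426 to 434) in the microneedle library. Only the microneedle library stood well above, 1.62 times (1.60 to 1.65) untreated. After thinning, 38.7% of untreated, 39.3% of croton oil and 51.7% of microneedle LCs had an Il18 UMI (86.5%, 84.9% and 95.1% unthinned). Little was found in Ccr7+ Fscn1+ cells, 17.9 CPM after croton oil and 33.5 after microneedling, or 0.0622 and 0.0779 of the LC level. In the same cells Cd207 stood at 0.329 and 0.240 of its LC level. Keratinocytes held 102 CPM of Il18 untreated, 29.5 after croton oil and 86.0 after microneedling. These were 0.385 (0.342 to 0.431), 0.102 (0.0896 to 0.116) and 0.20 (0.172 to 0.231) of the LC level. The untreated ratio lay well above those of Cd207 and Ltc4s, which gauge LC RNA in keratinocyte droplets. The croton oil ratio lay above that of Cd207, 0.0578 (0.0490 to 0.0679), and its interval overlapped that of Ltc4s, 0.0848 (0.0773 to 0.0929). The microneedle ratio lay above that of Cd207, 0.143 (0.120 to 0.168). The part of LC RNA in these keratinocyte levels was not tested. The keratinocytes caught in the 3 libraries were not alike: Krt10, a keratin of differentiating cells, stood at 25787 CPM untreated, 495 after croton oil and 6038 after microneedling, and Krt14, a keratin of basal cells, at 4209, 20234 and 18733. The part of this difference in the keratinocyte levels of Il18, Il36g and Il1rn was not tested.

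Il36g (chr2:24072000-24083585, plus strand) encodes IL-36γ, an epithelial cytokine of the family. In LCs it stayed at 0.257, 0.159 and 0.423 CPM, and its LC level over its keratinocyte level was 0.00526, 0.00756 and 0.0128. The keratinocyte markers had medians of 0.00667, 0.00557 and 0.00169 for the same ratio, and only the microneedle value of Il36g lay above their range, which ended at 0.00357. Over the neutrophil level that value was 0.00148, inside the range of the neutrophil markers. Neutrophils held 160 CPM (133 to 190) after croton oil and 287 (263 to 312) after microneedling. Keratinocytes held 48.8 CPM (41.1 to 57.4) untreated, 21.0 (18.0 to 24.4) after croton oil and 33.0 (25.8 to 41.6) after microneedling. The croton oil keratinocyte value was 44.3 as the mean of each cell's own CPM. Among thinned neutrophils 31.2% (26.5 to 36.2) had an Il36g UMI after microneedling and 14.5% (9.71 to 20.6) after croton oil (42.4% and 25.6% unthinned). No Il36g UMI was seen in Ccr7+ Fscn1+ cells, which allows up to 0.387 CPM after croton oil and 1.44 CPM after microneedling. Neutrophils carried 71.9% of Il36g UMIs in the microneedle and 32.3% in the croton oil library, where keratinocytes carried 41.9%.

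Il1a (chr2:129140291-129152098, minus strand), the gene of interleukin-1α, was scarce. LCs held 0.422 CPM (0.314 to 0.555) untreated, 3.92 (3.51 to 4.35) after croton oil and 4.33 (3.94 to 4.75) after microneedling. Both treated values were higher, and they overlapped each other. They rest on 51, 345 and 450 UMIs, and 0.128%, 0.751% and 0.629% of thinned LCs had one (0.350%, 2.45% and 2.25% unthinned). The highest Il1a levels were 127 CPM (111 to 144) in microneedle neutrophils and 51.5 (42.7 to 61.6) in microneedle macrophages, while croton oil neutrophils held 6.14 (1.99 to 14.3), from 5 UMIs. Keratinocytes, known as a store of interleukin-1α protein, held 1, 71 and 7 UMIs of Il1a in untreated, croton oil and microneedle skin. LCs, being many, still held 89.5%, 65.5% and 50.1% of all Il1a UMIs, and microneedle neutrophils 26.6%.

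Il1rn (chr2:24226865-24241506, plus strand), the receptor antagonist, was scarce in LCs and higher in the other classes. LCs held 2.31 CPM (2.05 to 2.60) untreated, 4.83 (4.39 to 5.32) after croton oil and 2.99 (2.67 to 3.34) after microneedling. The microneedle value was 0.00362 of the macrophage level, inside the range of the macrophage markers. Over the neutrophil level the LC values were 0.0162 after croton oil and 0.00535 after microneedling, inside the ranges of the neutrophil markers but above 5 of the 6 in each library. Macrophages after microneedling held 826 CPM (790 to 864). Neutrophils held 559 CPM (526 to 594) after microneedling and 299 (262 to 339) after croton oil, or 195 with the rule for neutrophils alone. The level in Ccr7+ Fscn1+ cells was 22.3 CPM (19.4 to 25.5) after croton oil and 24.6 (18.9 to 31.4) after microneedling, values that overlap. Thinned cells with an Il1rn UMI made up 63.0% (56.9 to 68.7) of macrophages, 49.2% (44.0 to 54.4) of microneedle and 44.1% (36.7 to 51.7) of croton oil neutrophils (78.4%, 63.3% and 53.3% unthinned), and at most 0.767% of LCs in any library (3.28% unthinned). The 2 neutrophil shares overlap although the CPM did not. In Ccr7+ Fscn1+ cells Il1rn stood at 4.62 and 8.21 times the LC level. Keratinocyte levels were 49.1 CPM (41.5 to 57.8) untreated, 13.1 (10.7 to 15.8) after croton oil and 46.9 (38.2 to 57.0) after microneedling. By CPM only croton oil was low, but thinned keratinocytes with an Il1rn UMI made up 13.3% (6.81 to 22.5) untreated, 2.61% (0.717 to 6.56) after croton oil and 2.04% (0.0517 to 10.9) after microneedling, where 49 cells were left (62.5%, 31.3% and 43.9% unthinned). The Il1rn isoforms that are secreted or kept inside the cell share their 3′ end and cannot be told apart here.

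Il1r2 (chr1:40113239-40164391, plus strand), the decoy receptor, was carried by LCs and neutrophils. The LC level was 2494 CPM (2485 to 2503) without treatment, 2652 (2641 to 2663) after croton oil and 3953 (3941 to 3965) after microneedling. The microneedle library was 1.59 times untreated, whereas croton oil differed from untreated by a factor of 1.06. On the log2 scale this croton oil difference was 0.09, but 0.47 with MHC class II of at least 5%. Thinned LCs with an Il1r2 UMI made up 81.9%, 91.7% and 94.0% (94.2%, 99.1% and 99.2% unthinned). Neutrophils held 2109 CPM (2010 to 2211) after croton oil and 2052 (1988 to 2118) after microneedling, which overlap. That was 0.795 and 0.519 of the LC level, where Cd207 in the same neutrophils stood at 0.0946 and 0.0687. Far less lay in Ccr7+ Fscn1+ cells, with 517 CPM after croton oil and 572 after microneedling, 5.13 and 6.92 times below the LCs of their library. Macrophages held 64.4 CPM. In keratinocytes the ratio of Il1r2 to its LC level (0.0741, 0.0908 and 0.114) lay near those of the LC genes Cd207 (0.0886, 0.0578 and 0.143) and Ltc4s (0.0869, 0.0848 and 0.131). The croton oil ratio (0.0868 to 0.0949) lay above that of Cd207 (0.0490 to 0.0679) and overlapped that of Ltc4s (0.0773 to 0.0929).

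Il1r1 (chr1:40264174-40356417, plus strand), the signalling receptor, was lower in treated LCs. Its level was 174 CPM (171 to 176) untreated, 87.3 (85.4 to 89.3) after croton oil and 110 (108 to 112) after microneedling. Treated LCs thus held 1.99 times (1.94 to 2.04) and 1.58 times (1.55 to 1.62) less. On the log2 scale with a pseudocount of 5 CPM the differences were -0.95 and -0.64, short of the 2-fold mark. The share of thinned LCs with an Il1r1 UMI was 27.4% untreated, 14.7% after croton oil and 17.2% after microneedling (74.2%, 52.7% and 65.5% unthinned). Ccr7+ Fscn1+ cells differed between treatments, with 296 CPM (285 to 307) after croton oil and 86.6 (75.5 to 98.7) after microneedling. After croton oil they held 24.1% of all Il1r1 UMIs, and counting them together with LCs moved the croton oil difference from untreated to -0.66. Keratinocytes held 40.3, 39.7 and 53.9 CPM of Il1r1, or 0.232, 0.454 and 0.491 of the LC level.

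Il1rap (chr16:26400350-26548880, plus strand), the shared accessory chain, had an LC level of 214 CPM (211 to 216) untreated, 194 (191 to 197) after croton oil and 300 (297 to 304) after microneedling. The microneedle library was the high one, at 1.41 times untreated. Thinned shares of LCs with an Il1rap UMI were 28.2%, 24.4% and 32.7% (70.4%, 63.8% and 76.3% unthinned). Neutrophils held more, 624 CPM (571 to 681) after croton oil (402 with the rule for neutrophils alone) and 1071 (1025 to 1119) after microneedling. Ccr7+ Fscn1+ cells held 28.7 CPM (25.4 to 32.3) and 29.6 (23.3 to 37.1), which overlap. After microneedling these cells thus had Il1r1 at 0.789 but Il1rap at 0.0987 of the LC level.

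Nlrp3 (chr11:59432394-59457782, plus strand), the inflammasome sensor, was higher in both treated LC sets. The levels were 165 CPM (163 to 168) untreated, 244 (241 to 248) after croton oil and 220 (217 to 222) after microneedling, or 1.48 and 1.33 times untreated. Thinned shares were 24.0%, 32.7% and 28.3% (64.8%, 79.6% and 77.8% unthinned). Neutrophils held 489 CPM (442 to 540) after croton oil (323 with the rule for neutrophils alone) and 1392 (1340 to 1447) after microneedling, and macrophages 354 (331 to 379). Casp1 (chr9:5298508-5307290, plus strand), the protease gene, had LC levels of 15.0, 17.0 and 18.7 CPM, in the same order of libraries, and was under 20 CPM in each. Its highest level was 37.8 CPM (30.3 to 46.5) in macrophages. Microneedle Ccr7+ Fscn1+ cells, at 27.7 (21.6 to 34.9), and microneedle neutrophils, at 22.8 (16.5 to 30.7), overlapped it.

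Set against all genes of LCs, 6 of the 10 members reached 20 CPM in at least 1 library of each comparison and were compared: Il1b, Il1r1, Il1r2, Il1rap, Il18 and Nlrp3. Croton oil and microneedling share the untreated library, so these comparisons are not independent. In croton oil against untreated LCs, 1 of 6 members was at least 2-fold higher (Il1b, log2 3.18) and 0 were lower, where 5.57% of 6845 genes were higher and 5.55% lower. In microneedle against untreated LCs it was again 1 of 6 (Il1b, log2 2.18) and 0 lower, against 3.9% higher and 1.79% lower of 6710 genes. In croton oil against microneedle LCs, Il1b alone was past 2-fold (log2 1.01, but 0.95 with Ccr7+ Fscn1+ cells counted as LCs), against 1.63% higher and 1.06% lower of 6625 genes. With counts this small the members' shares say little against the background. The median log2 difference over the 6 members was 0.10, 0.57 and -0.44 in these comparisons, and over all genes -0.04, 0.02 and -0.06. Of the genes past 2-fold, those that were higher made up 50.1% in croton oil against untreated and 60.7% in croton oil against microneedle LCs, which became 65.4% and 76.3% with TMM scaling.

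**Figure D5:**
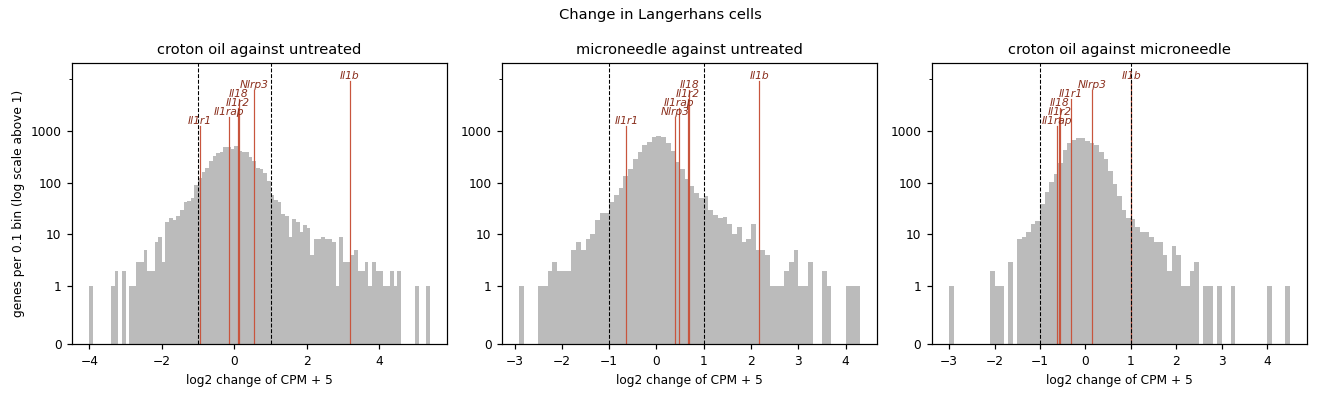
Histogram of log2 differences (horizontal axis) over genes compared in LCs, with genes per bin on an axis that is logarithmic above 1; red lines mark the 6 members compared and dashed lines 2-fold. Il1b lies at 3.18, 2.18 and 1.01, and Il1r1 at -0.95 and -0.64 against untreated.

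Other genes of the pathway were taken from 5 lists. Of 6 further ligands and antagonists (Il33, Il36a, Il36b, Il36rn, Il1f10 and Il18bp) none reached 20 CPM in LCs. Of 7 other receptors 2 were compared, Il18r1, a chain of the IL-18 receptor, at log2 -0.95 after croton oil, and Il1rl2. Il1rl2, which encodes the IL-36 receptor chain, stood at 128 CPM without treatment, 59.7 after croton oil and 87.5 after microneedling, and was past 2-fold lower after croton oil (log2 -1.04), as were 5.55% of all genes, though not with TMM scaling (-0.91) or with Ccr7+ Fscn1+ cells counted as LCs (-0.95).

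Of 24 inflammasome and processing genes 12 were compared. After croton oil 2 were past 2-fold higher and 1 lower, beside 5.57% and 5.55% of all genes: Casp4, an inflammatory caspase, at log2 1.24, Panx1, a membrane channel, at 1.74, and Txnip, a thioredoxin-binding protein, at -1.18. After microneedling 3 were higher and 0 lower, beside 3.9% and 1.79% of all genes: Casp4 at 1.41, Panx1 at 1.70 and Gsdme, a pore-forming gasdermin, at 1.09. Casp4 (14.0 CPM) and Panx1 (17.3) were under 20 CPM in untreated LCs and were compared only through the treated libraries where they are high, so these counts are not read against the shares of all genes. Of 25 receptor signalling genes 22 were compared, and 1 was past 2-fold, Peli1, a ubiquitin ligase of the pathway, at -1.51 after croton oil (982 CPM untreated, 342 after croton oil). That is near the share of all genes that were lower, 5.55%. After microneedling 0 of the 22 were past 2-fold in either direction.

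Of 16 response genes 8 were compared after croton oil, with 5 past 2-fold higher and 1 lower, beside 5.57% and 5.55% of all genes. Of these 5, Cxcl1, Ccl3, Ccl4 and Ptgs2 reached 20 CPM only in the treated library where they are high, so the counts of response genes are not read against the shares of all genes. The same holds for Cxcl1 after microneedling, and for Ccl3 and Ccl4 in croton oil against microneedle LCs. In LCs the chemokine gene Cxcl1 had 18.4 CPM untreated, 128 after croton oil and 60.0 after microneedling, and Cxcl2 had 232, 1251 and 656. The chemokines Ccl3 (log2 2.75) and Ccl4 (2.19) and the prostaglandin synthase Ptgs2 (1.98) were also higher after croton oil. After microneedling 5 were compared, with 2 higher, Cxcl1 (1.47) and Cxcl2 (1.48), and 1 lower, beside 3.9% and 1.79% of all genes. The lower one was Tnf in both, at 606 CPM untreated, 262 after croton oil and 263 after microneedling. In croton oil against microneedle LCs 3 of 8 were higher and 0 lower, beside 1.63% and 1.06% of all genes: Cxcl1 (1.04, but 0.91 with MHC class II of at least 5%), Ccl3 (1.67) and Ccl4 (1.42). Ccl3 stood at 1642 CPM in croton oil and 1497 in microneedle neutrophils, against 31.5 and 6.51 in LCs. The part of neutrophil RNA in these LC values was not tested.

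Over the 12 sums of at least 50 cells, the genes most like Il1b among 10708 by Pearson's r of log2(CPM + 5) were Cxcl2 (0.97), Mcl1 (0.94) and Slfn2 (0.94). For Il1r2 they were Gm16894 (0.93), Gcnt2 (0.91) and Gm20513 (0.90). For Il1rn they were Slc8b1 (0.96), Notch2 (0.96) and Gm47507 (0.94), and for Il1a Gbp2 (0.92), Gbp2b (0.92) and Ifit1 (0.92). The sums share libraries and differ in depth and cell type, so these values describe the order of levels only.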

How the data were processed

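Chromium 3' v3.1 libraries of LC-enriched epidermis were deposited as UMI count matrices which the authors made in Cell Ranger (version 8.0.0 per the file headers) on GRCm39, per the submitters' processing notes. The deposited counts are whole numbers, not normalized, of barcodes called as cells, so empty droplets were not used here. Totals were 127666928, 119360952 and 117178809 UMIs (untreated, croton oil, microneedle). Cells with at least 500 genes and at most 10% mitochondrial UMIs were kept. No doublet caller was run, and droplets that met several gates were set aside (7, 146 and 54).

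Members and gene lists were chosen with earlier results of these data known. All 10 members are named, pathway genes where past 2-fold (at most 8 per list and comparison), and for 4 members the 3 genes with the highest correlation. The further ligands and antagonists, and Il18r1, which fell short of 2-fold, are named outside this rule. Those ligands and antagonists with keratinocyte values, like Krt10 and Krt14, were chosen after their values were seen. Keratinocytes had at least 2% Krt5, Krt14, Krt1 and Krt10 UMIs. T cells had at least 3 Cd3d, Cd3e, Cd3g or Trbc2 UMIs making up at least 0.05%. Macrophages had at least 3 of 8 markers (Lyz2, Ccr2, Ly6c2, Fcgr1, F13a1, Ms4a7, Plac8, Cd14), at most 1 Epcam UMI and no Cd207. Within 0.5 percentage points of the 2% MHC class II cut-off lay 140, 260 and 112 cells, and within 0.5 points of the 2% keratin share 63, 82 and 30 cells, many for classes of 88, 163 and 57 keratinocytes. After the data were seen, neutrophils were also required to have under 0.3% keratin UMIs, and the Ccr7+ Fscn1+ class was added (both genes, together at least 0.05% of UMIs).

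UMIs were summed per class and library and expressed as CPM with exact Poisson intervals, and ratios with exact conditional intervals. Intervals cover counting error only. Differences are log2((CPM + 5)/(CPM + 5)) for genes of at least 20 CPM in either library, a scale that understates low genes. Shares of cells were taken after thinning to 2000 UMIs, leaving out shallower cells (43, 12 and 33 LCs), with exact Clopper-Pearson intervals. The arithmetic of the 2-fold calls was checked on simulated data, 2 sums drawn from untreated LCs. In these, 200 of 200 genes changed 4-fold and 0 of 6076 unchanged genes were called. The ratio intervals held the true ratio for 948 of 1000 genes. The 2 sums differed by counting error and the planted changes only, so the error of calls between libraries was not tested. Python 3.11.15, numpy 2.4.6, scipy 1.17.1 and pandas 2.3.3 were used, with TMM factors from edgeR 4.0.16 in R 4.3.3 as an alternative. UMIs carry no gene length, and no length scaling was applied.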

Additional observations from a re-analysis of the deposited data

Results flagged for a closer look

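Among the 6 members of at least 20 CPM in LCs, and classes in which the gene reached 20 CPM too, 8 comparisons between libraries ran one way in LCs and the other way in another class, with counting intervals of both ratios clear of 1. Il1rn, Il36g, Il1a and Casp1, under 20 CPM in LCs, were left out. None of these opposite directions was tested, since each class had 1 library per group. Il1b had log2 differences of croton oil from microneedle of -1.72 in neutrophils and -0.55 in Ccr7+ Fscn1+ cells, against 1.01 in LCs. Nlrp3 had -1.50 in neutrophils and -0.58 in Ccr7+ Fscn1+ cells, against 0.15 in LCs. Il1r1 had 1.72 in Ccr7+ Fscn1+ cells, against -0.31 in LCs. Il18 had 1.00 in neutrophils, against -0.57 in LCs, from 72 and 79 neutrophil UMIs. The microneedle neutrophil level was 0.0972 (0.0770 to 0.121) of that in LCs. This overlaps the ratio of the LC gene Cd207, 0.0687 (0.0524 to 0.0885), and lies above that of Ltc4s, 0.0367 (0.0251 to 0.0518). The croton oil neutrophil level was 0.307 (0.240 to 0.387) of that in LCs. This lies above the ratios of Cd207, 0.0946 (0.0612 to 0.140), and Ltc4s, 0.0835 (0.0613 to 0.111). The part of LC RNA in these neutrophil levels was not tested. In croton oil against untreated cells Il18 had -1.63 in keratinocytes, against 0.12 in LCs. The part of LC RNA in that keratinocyte level was not tested. In microneedle against untreated cells Il1r1 had 0.38 in keratinocytes, against -0.64 in LCs.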

How the results depend on the processing

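The LC difference of each of the 6 members compared kept its sign under 16 alternatives of gate, scaling, pseudocount and minimum level, apart from Il1r2 and Il18 in croton oil against untreated LCs, which turned to -0.03 and -0.02 from 0.09 and 0.12 when the Ccr7+ Fscn1+ cells were counted among LCs. Il1b ranged from 3.15 to 3.38 (croton oil) and from 2.00 to 2.42 (microneedle) against untreated. Of the pathway genes past 2-fold, Il1rl2 and Cxcl1 fell short of it in some alternatives, with lowest sizes of -0.91 (croton oil against untreated) and 0.91 (croton oil against microneedle), and the others stayed past it in every alternative run. Il1b in croton oil against microneedle LCs ranged from 0.95 to 1.16, so the count of members past 2-fold there went from 1 to 0 with Epcam of at least 4 UMIs, with MHC class II of at least 5%, with T cell droplets kept and with Ccr7+ Fscn1+ cells added (the last 2 chosen after seeing the data). Genes at least 2-fold lower in croton oil against microneedle LCs went from 70 to 44 with TMM scaling and 45 at a minimum of 50 CPM, which also took those lower in croton oil and microneedle against untreated LCs from 380 to 230 and from 120 to 67, fewer genes being compared. TMM scaling moved the median log2 difference of all genes from -0.04 to 0.10 in croton oil against untreated and from -0.06 to 0.09 in croton oil against microneedle LCs.

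Of 228 recomputed class levels of at least 20 CPM, 12 moved by over 1.5 times. The rule for neutrophils alone brought 4 croton oil neutrophil levels down: Il1b to 1668, Il1rap to 402, Il1rn to 195 and Nlrp3 to 323 CPM. The other 8 came from averaging each cell's CPM: 3 are given with their results, and Il1r1 went from 23.1 to 10.8, Il1r2 from 186 to 103 and Nlrp3 from 53.5 to 18.9 CPM in T cells, Il1r1 from 26.5 to 9.29 in microneedle neutrophils and Nlrp3 from 21.4 to 13 in microneedle keratinocytes. Leaving out neutrophils with a melanocyte marker UMI, an alternative chosen after seeing the data, moved none of the levels of at least 20 CPM by over 1.5 times. A minimum of 5% keratins left under 50 keratinocytes in each library and gave no value. No paired analysis was possible because each group had 1 library. Depth limits what can be said of Il1a, Il1rn and Il36g in LCs, all under 5 CPM.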

Other observations

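Keratinocytes of the 3 libraries also differed in the IL-36 genes outside the member set, which were chosen here, as was Il33, after their values were seen. Il36rn, the antagonist of the IL-36 receptor, stood at 119 CPM (107 to 132) untreated, 2.24 (1.33 to 3.54) after croton oil and 41.4 (33.2 to 50.9) after microneedling. Il36a stood at 25.8, 0.373 and 46.9 CPM and Il36b at 28.8, 0.249 and 18.1, so that croton oil was low for each of these 3 genes. The values of Il36a and Il36b after croton oil rest on 3 and 2 UMIs. Il33, an alarmin of the same family, went the other way, with 48.5 CPM (40.8 to 57.1) untreated, 124 (117 to 132) after croton oil and 110 (96.5 to 125) after microneedling. The keratinocytes also differed in their Krt10 and Krt14 levels between libraries, and the part of that difference in these values was not tested.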
